A study of Sus scrofa with 27 samples.

Results

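The genes described here belong to immune metabolism, the small set of enzymes, transporters and receptors by which activated macrophages, epithelium and endothelium turn over itaconate, tryptophan and arginine. They were followed in pig lungs kept alive on an ex vivo lung perfusion (EVLP) circuit. The 10 names were sought by symbol in the table of read counts per gene, and the members were chosen by that name and by a count of at least 10 in at least 1 library. The list of names was itself drawn up with changes in these libraries known. All 10 were kept, out of 31908 genes: ACOD1, SUCNR1, IDO1, KYNU, NOS2, GCH1, SLC7A2, ARG1, ARG2 and SOD2. The lowest of them was SUCNR1, with 3 to 123 counts a library, so no member lay near the limit and none lay just outside it. All 10 also passed the filter on low counts in every comparison below.

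The lungs came from Large-White pigs used as non-heart-beating donors and were perfused for 12h after cold storage, all with Steen solution holding methylprednisolone, cefuroxime and heparin. In the Gold Standard (GS) group, 5 pigs numbered 9, 17, 44, 55 and 77, part of the perfusate was exchanged for fresh solution at intervals. In the Pediatric Dialysis (PD) group, 4 pigs numbered 2, 3, 4 and 5, the perfusate was dialysed without pause through a pediatric membrane. Each lung was biopsied at 0h, before perfusion, and at 6h and 12h, which gave 27 libraries of whole lung tissue. An isolated lung receives no new cells from marrow, liver or lymph node, and the steroid was present in both groups. RNA was extracted by PicoPure or by Trizol with NucleoSpin, and which route served which biopsy is not given. All changes of a group share its 0h libraries, so the 6h and 12h values are not independent.

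Itaconate is made inside mitochondria by ACOD1 from an intermediate of the tricarboxylic acid cycle. It slows succinate dehydrogenase, so that succinate builds up, and succinate that leaves the cell is sensed by the receptor SUCNR1. IDO1 opens the tryptophan ring at the head of the kynurenine pathway and KYNU cleaves kynurenine further on. Arginine enters the cell through carriers such as SLC7A2 and is either oxidised to nitric oxide by the inducible synthase NOS2, which needs the tetrahydrobiopterin that GCH1 starts to make, or split to ornithine by the arginases, ARG1 in the cytosol and ARG2 in mitochondria. SOD2 removes superoxide in the mitochondrial matrix. Cytokines that act through NF-kB or interferon regulatory factors are known inducers of most of them.

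IDO1 and ARG2 carry in front of their start the letters of such response elements, and these stretches are shown because no other member did. The start is that of the RefSeq annotation of Sscrofa11.1, the build of the count table, and up to 250 bases before it are given, both on the plus strand and 5′ to 3′. Bases that the table's own annotation places inside IDO1 are left out. Capitals mark matches to an interferon response element-like pattern in IDO1 (GAAA, any 2 bases, GAAA) and to an NF-kB-like pattern in ARG2 (GGG, any 2 bases, TTTCC), each searched on both strands.
IDO1 (chr17:9245033-9245195): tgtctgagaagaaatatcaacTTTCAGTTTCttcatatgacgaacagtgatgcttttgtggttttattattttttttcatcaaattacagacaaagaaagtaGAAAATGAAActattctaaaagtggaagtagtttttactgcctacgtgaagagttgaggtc
ARG2 (chr7:91343737-91343986): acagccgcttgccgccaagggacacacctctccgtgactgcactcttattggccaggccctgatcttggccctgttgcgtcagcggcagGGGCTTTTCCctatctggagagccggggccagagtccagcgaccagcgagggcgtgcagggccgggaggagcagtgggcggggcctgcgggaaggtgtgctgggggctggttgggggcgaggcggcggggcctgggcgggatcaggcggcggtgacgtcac

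The IDO1 matches begin 229 bases before the RefSeq start, on the minus strand, and 148 bases before it, on the plus strand. Of 19556 promoters of the same 300 bases (250 before to 50 after the start), 3.57% held this pattern, and IDO1 was the only one of the 10 genes that did. The ARG2 match begins 161 bases before its start, and 1.90% of promoters held that pattern, again only ARG2 among the 10. In the count table's annotation the ARG2 stretch lies within the gene model of its neighbour PLEKHH1. Another NF-kB-like pattern (GGGAC, any base, TTCC; 0.322% of promoters) was in none of the 10, and the STAT-like TTCNNNGAA (7.12%) was in IDO1 alone. The antioxidant response element-like TGANNNNGC was in 6 of the 10 and in 40.8% of all promoters. The windows of ACOD1, ARG1 and SOD2 held none of the NF-kB-like, interferon-like or STAT-like letters, which says only that these letters are not in these 300 bases. For SUCNR1, NOS2, SLC7A2 and SOD2 the RefSeq start lies inside the gene as the count table draws it. The same holds for IDO1 and ARG1, where 87 and 3 bases were left out. For GCH1, ACOD1 and KYNU it lies 6745, 340 and 6 bases outside the gene.

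Libraries held 26335584 to 67522703 counts in GS and 14650700 to 21820935 in PD, so that group and depth cannot be told apart. With the GS libraries thinned to the median PD total, the number of members called stayed as given below in every comparison that was rerun. Genes of ribosomal proteins took 2.83% to 3.82% of counts in GS and 6.85% to 22.5% in PD. The libraries of PD pig 2 at 12h (22.5%) and PD pig 4 at 0h (16.9%) stood apart and were also the least like the others of their group and time, so fitted PD changes of the members are given with and without them. Without them, 2 PD pigs (3 and 5) have both a 0h and a 12h library, 3 have both 0h and 6h and 3 have both 6h and 12h, and pigs 2 and 4 enter the 12h change through their 6h libraries. Alveolar epithelial markers (7 of 9 listed were in the table) summed to 6161 to 16168 CPM in GS (CPM being counts scaled to a common library total) and 16372 to 91741 in PD, and macrophage markers (9 of 10) to 3220 to 8644 and 2484 to 6011. Neutrophil markers (9 of 10) summed to 154 to 444 CPM in GS and to 238 to 1527 in PD, and monocyte markers (5 listed, LYZ at 0) to 163 to 336 and 129 to 325. Erythrocyte markers (5 of 6) had a median sum of 4.97 CPM in GS and 134 in PD at 0h, with no overlap between the groups at any time, and B cell markers (5 of 5) summed to 237 to 334 CPM in GS and 513 to 2177 in PD at 0h. Within PD some sums moved with time: T and NK cell markers (9 of 9) summed to 198 to 324 CPM at 0h and 129 to 180 at 12h, neutrophil markers had medians of 718, 337 and 438 CPM at 0h, 6h and 12h, and alveolar markers of 43739, 25582 and 25378. The lung markers were present in every library. In bulk tissue fewer cells of a type and less RNA per cell cannot be told apart, and the part of these differences in the results below was not tested.

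Per kilobase of messenger RNA (median length of the RefSeq models), SOD2 had the highest level at 0h in both groups, 97.1 ± 33.4 CPM per kb (SD, n = 5) in GS and 227 ± 87.3 (n = 4) in PD. ARG1 followed with 15.0 ± 9.51 and 31.6 ± 18.5. In GS, NOS2 (10.7 ± 5.62) and IDO1 (8.52 ± 5.08) did not differ from each other beyond their spread, nor from ARG1. The remaining genes lay in GS between 1.51 ± 0.311 (ARG2) and 3.43 ± 0.853 (KYNU), except SUCNR1, which was lowest at 0.146 ± 0.0372 in GS and 0.0613 ± 0.0488 in PD. Before perfusion the lungs therefore held much SOD2 and ARG1 message per length and little of ACOD1, at 1.79 ± 0.815 in GS and 1.68 ± 0.805 in PD.

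**Figure D1:**
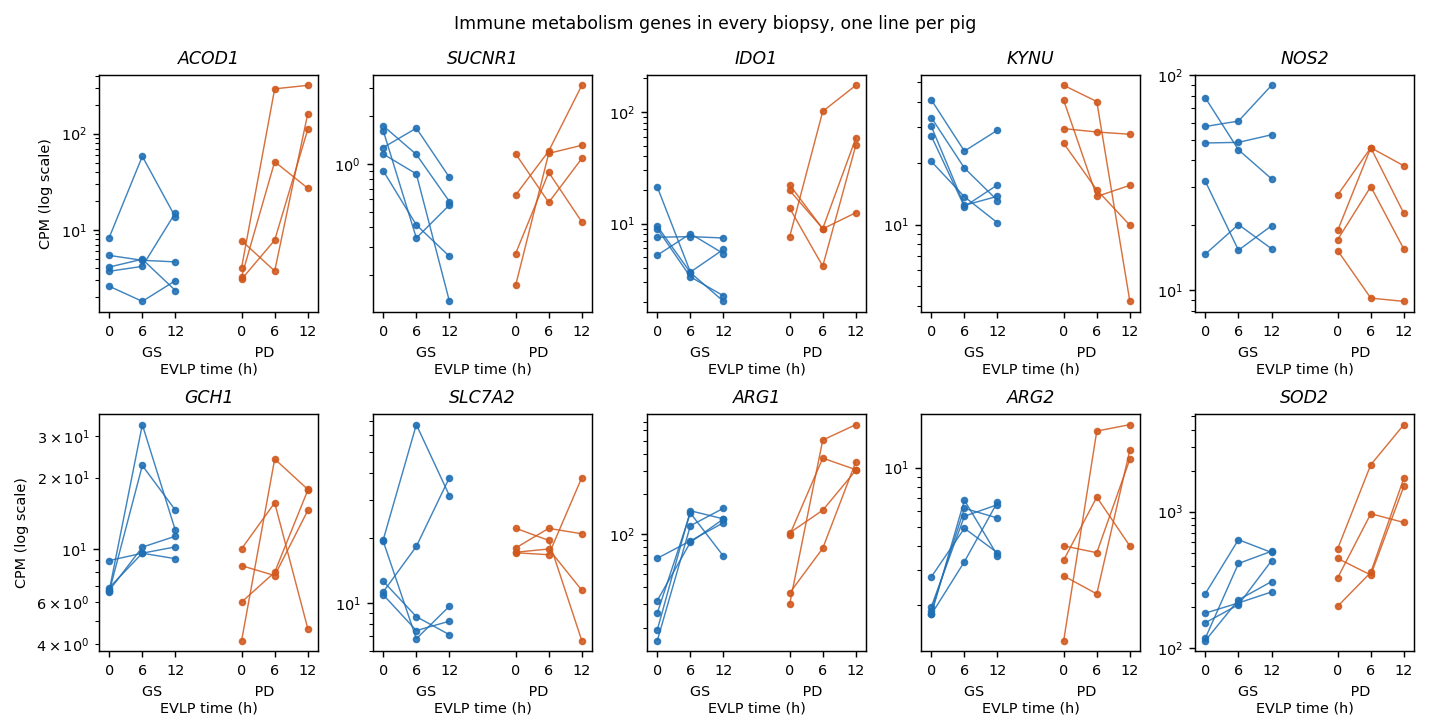
Level of each gene in CPM (log axis, one panel per gene) against EVLP time in hours, one line per pig, GS in blue and PD in orange. ACOD1 at 12h lies between 27.1 and 317 CPM in PD and between 2.35 and 15.1 in GS, while NOS2 and SLC7A2 go different ways in different pigs.

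ACOD1 (ENSSSCG00000009469, chr11:49077492-49088345, plus strand), the itaconate-forming enzyme, was the member with the largest change. At 0h it stood at 8.34, 5.44, 2.60, 3.72 and 4.12 CPM in GS pigs 9, 17, 44, 55 and 77, and at 3.28, 7.74, 4.07 and 3.08 in PD pigs 2, 3, 4 and 5. The groups overlapped fully before perfusion. At 6h the GS values were 58.1, 4.84, 1.81, 4.19 and 4.97, and the PD values 51.1, 3.75, 291 and 7.83. GS pig 9 and PD pigs 2 and 4 were thus high at 6h, and the others lay at 7.83 or below. At 12h the GS values were 13.6, 4.66, 2.98, 15.1 and 2.35, and those of PD 27.1, 161, 317 and 111, so that all 4 PD lungs lay above all 5 GS lungs. By the comparison of levels given below, 19.3% of all genes differed between the groups at 12h.

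Change within a group was tested with edgeR's quasi-likelihood F test with the pig as a block. A call here means an adjusted p (Benjamini-Hochberg, over all genes tested) under 0.05 together with a 2-fold change or more. In PD, ACOD1 was higher at 12h than at 0h by 4.69 on the log2 scale (SE 1.04, adjusted p = 0.0304), and it rose in 4 of 4 pigs. At 6h the PD change was 3.26 (SE 1.11, adjusted p = 0.374), with 3 of 4 pigs up, and it was not called, or 2.16 (SE 1.36, adjusted p = 0.549) without the 2 libraries that stood apart. In GS the 12h change was smaller than its standard error, and the 6h change was 0.57 (SE 0.52, adjusted p = 0.430), or -0.044 (adjusted p = 0.950) without pig 9. Without the 2 libraries the PD change at 12h was 4.70 (SE 1.31), and its adjusted p of 0.0596 missed the threshold. The call was also lost without pig 3, 4 or 5 (adjusted p = 0.0550 to 0.271) and with no filter on low counts (4.71, adjusted p = 0.0652).

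SUCNR1 (ENSSSCG00000022105, chr13:92062725-92130679, plus strand), the succinate receptor, went down in GS. Its GS values were 1.154, 1.62, 0.904, 1.27 and 1.74 CPM at 0h and 0.137, 0.552, 0.262, 0.823 and 0.580 at 12h. Every GS lung was lower at 12h than at 0h, and the values at 12h lay below those at 0h. The fitted change was -1.66 (SE 0.39, adjusted p = 0.00532) at 12h and -0.75 (SE 0.38, adjusted p = 0.151) at 6h. In PD it stood at 0.273, 1.16, 0.172 and 0.637 CPM at 0h and at 0.432, 1.08, 1.31 and 3.12 at 12h, with 3 of 4 lungs up, and the change of 1.32 (SE 0.66, adjusted p = 0.245) was not called, nor was that of 1.17 (SE 0.61, adjusted p = 0.170) without the 2 libraries. At 6h the PD change was 0.93 (SE 0.67), or 0.49 (SE 0.58) without them, with 3 of 4 lungs up. These levels rest on few reads, 3 counts in PD pig 4 at 0h and 4 in PD pig 2 at 12h, both among the libraries that stood apart.

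IDO1 (ENSSSCG00000007007, chr17:9245196-9260491, plus strand), the first enzyme of the kynurenine pathway, fell in GS by 12h and was above its 0h level in 3 of 4 PD lungs. In GS it was 7.55, 9.48, 21.3, 5.21 and 9.003 CPM at 0h, and 7.43, 2.01, 5.88, 5.39 and 2.26 at 12h. Pigs 17, 44 and 77 were lower at 12h than at 0h, while pigs 9 and 55 stayed near their own 0h level. In GS the 12h change was -1.36 (SE 0.39, adjusted p = 0.0156), called but not without pig 17, 44 or 77 (adjusted p = 0.0573 to 0.0734) nor with all 27 libraries in one fit (adjusted p = 0.132), while the 6h change of -1.04 (SE 0.39, adjusted p = 0.0626) was not, though it was by DESeq2 (-1.005, adjusted p = 0.0246) and without pig 55 (-1.41, adjusted p = 0.0249). In PD it was 22.2, 13.7, 7.63 and 19.8 CPM at 0h, 8.98, 4.16, 101.2 and 9.04 at 6h, and 12.5, 50.4, 173 and 58.3 at 12h. PD pigs 2, 3 and 5 were thus below their 0h level at 6h and pig 4 above it, and by 12h all but pig 2 were above their 0h level. The PD change was -0.39 at 6h (SE 0.82) and 1.43 at 12h (SE 0.80, adjusted p = 0.295). Without the 2 libraries the 6h change was -1.04 (SE 0.40, adjusted p = 0.194), the 12h change became 1.35 (SE 0.42, adjusted p = 0.0283), a call that rests on 2 pigs with both libraries, and 12h against 6h was then 2.39 (SE 0.39, adjusted p = 0.00828).

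KYNU (ENSSSCG00000015673, chr15:8850665-8982945, minus strand), the kynureninase, was below its 0h level at 6h and 12h in all 9 lungs, though by little in PD pig 4. Its GS values were 40.8, 33.4, 30.3, 20.4 and 27.1 CPM at 0h, 22.9, 18.9, 12.4, 13.7 and 12.3 at 6h, and 29.0, 13.1, 13.8, 10.2 and 15.7 at 12h. The GS changes of -0.94 (6h, SE 0.16, adjusted p = 0.00176) and -0.98 (12h, SE 0.16, adjusted p = 0.000813) passed the test on p but stayed just under the fold of 2. They were called at 6h without pig 55 (-1.03, adjusted p = 0.00507). At 12h they were called without pig 9 (-1.05, adjusted p = 0.00118) or pig 77 (-1.01, adjusted p = 0.00304). In PD it was 48.1, 40.6, 29.5 and 25.0 CPM at 0h and 4.21, 15.6, 27.7 and 9.94 at 12h, and the change of -1.38 (SE 0.53, adjusted p = 0.138) was not called, nor was that of -0.63 at 6h (SE 0.51), or -0.86 (SE 0.31, adjusted p = 0.153) without the 2 libraries. The lowest PD value was in the pig 2 library that stood apart, and without both libraries the change was -1.13 (SE 0.35, adjusted p = 0.0262), a call on the same 2 pairs. With all 27 libraries in one fit it was -1.37 (SE 0.40, adjusted p = 0.0179), also a call. The first and the later enzyme of the pathway therefore did not share a direction in PD lungs 3, 4 and 5 at 12h, where IDO1 was above and KYNU below the level at 0h. KYNU shares 3972 bases with a pseudogene model that had 527 counts in all against 21220 for KYNU.

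NOS2 (ENSSSCG00000017755, chr12:44174944-44327111, minus strand), the inducible nitric oxide synthase, showed no change from 0h that passed the test in either group. In GS it was 14.7, 32.0, 48.2, 78.2 and 57.5 CPM at 0h and 15.5, 19.9, 52.6, 32.9 and 89.4 at 12h. In PD it was 15.2, 17.2, 18.9 and 27.7 CPM at 0h, 9.16, 30.2, 45.8 and 45.8 at 6h, and 8.85, 15.5, 37.8 and 22.7 at 12h. GS lungs differed among themselves by more than the fitted changes. In PD 3 of 4 lungs were up at 6h (change 0.51, SE 0.38, adjusted p = 0.659, or 0.27, SE 0.33, without the 2 libraries) while only pig 4 was still above its 0h level at 12h, when the fitted change was smaller than its standard error with and without the 2 libraries. NOS2 overlaps LYRM9 on its own strand over 18119 bases, and LYRM9 had 6644 counts in all against 42511.

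GCH1 (ENSSSCG00000035715, chr1:184202007-184257315, minus strand), the first enzyme of tetrahydrobiopterin synthesis, rose in GS at 6h. It was 8.97, 6.89, 6.63, 6.71 and 6.69 CPM at 0h and 9.62, 9.63, 22.5, 10.2 and 33.4 at 6h, so that pigs 44 and 77 were highest at 6h. The change was 1.07 (SE 0.28, adjusted p = 0.0136) at 6h and 0.60 (SE 0.27, adjusted p = 0.0956) at 12h. Without pig 77 the 6h value was 0.73 (adjusted p = 0.0592) and without pig 44 it was 0.90 (adjusted p = 0.0795), both without a call, as was the value of 1.08 (adjusted p = 0.102) with all 27 libraries in one fit. In PD the changes of 0.85 at 6h (SE 0.54) and 0.89 at 12h (SE 0.55) were not called (adjusted p = 0.631 and 0.349), nor were those of 0.50 (SE 0.36, adjusted p = 0.564) and 1.01 (SE 0.39, adjusted p = 0.0668) without the 2 libraries. At 12h pig 2 stood at 4.64 CPM against 14.6, 17.9 and 17.7 in the other 3.

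SLC7A2 (ENSSSCG00000006987, chr17:5122265-5271849, plus strand), a carrier of cationic amino acids, had no common direction. In GS pigs 9 and 17 it went from 11.3 and 19.7 CPM at 0h to 38.2 and 31.5 at 12h, while pigs 44, 55 and 77 went from 10.9, 12.6 and 19.3 to 8.24, 7.13 and 9.67. In PD it lay between 17.1 and 22.2 CPM at 0h, between 16.8 and 22.2 at 6h and between 6.69 and 38.2 at 12h. All 4 fitted changes from 0h were smaller than their standard errors, those of PD also without the 2 libraries.

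ARG1 (ENSSSCG00000004195, chr1:32006038-32028986, minus strand), the cytosolic arginase, rose in both groups. In GS it went from 66.1, 31.9, 19.2, 16.0 and 25.7 CPM at 0h to 89.3, 87.1, 150, 116 and 144 at 6h and 122, 130, 131, 157 and 68.6 at 12h. In PD it went from 98.9, 103, 30.0 and 36.3 CPM to 372, 152, 509 and 78.6 at 6h and 305, 302, 664 and 350 at 12h. All 9 lungs were above their own 0h level at both times, and at 12h the levels of the groups did not overlap. Of all genes, 19.3% were called different in level between the groups at 12h, and 29.1% already at 0h. The GS change was 1.99 both times, with an SE of 0.35 and an adjusted p of 0.00187 at 6h and 0.00107 at 12h. In PD it was 2.61 at 12h (SE 0.58, adjusted p = 0.0304), a call lost without pig 3, 4 or 5 (adjusted p = 0.0577 to 0.277), and 1.84 at 6h (SE 0.57, adjusted p = 0.308), none. Without the 2 libraries the PD change at 12h was 2.43 (SE 0.40, adjusted p = 0.000763) and that at 6h 1.33 (SE 0.36, adjusted p = 0.0573). Liver cells are rich in ARG1. Of 7 hepatocyte markers, ALB, SERPINA1 and CPS1 were at most 0.831, 0.191 and 0.218 CPM in any library. The whole list, with APOA1, APOB, TF and HP, summed to 147 to 456 CPM in GS and 268 to 1053 in PD. Its median sums at 0h, 6h and 12h were 260, 282 and 328 CPM in GS and 386, 368 and 495 in PD. Whether this has a part in the ARG1 change was not tested.

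ARG2 (ENSSSCG00000002294, chr7:91343987-91385911, plus strand), the mitochondrial arginase, rose in GS by a similar amount at both times. It was 2.78, 1.87, 1.96, 1.79 and 1.79 CPM at 0h, 4.91, 6.21, 5.66, 3.32 and 6.83 at 6h, and 3.69, 5.54, 6.48, 6.68 and 3.57 at 12h, with no overlap between 0h and either later time. The changes were 1.39 (SE 0.26, adjusted p = 0.00274) and 1.31 (SE 0.26, adjusted p = 0.00234). In PD it was 3.38, 4.00, 1.32 and 2.81 CPM at 0h, 7.08, 3.69, 15.3 and 2.28 at 6h, and 3.99, 11.04, 16.5 and 12.3 at 12h. PD lungs were up in 2 of 4 at 6h (change 1.04, SE 0.64, adjusted p = 0.622, or 0.49, SE 0.43, without the 2 libraries) and in 4 of 4 at 12h, and the 12h change of 1.79 (SE 0.63, adjusted p = 0.112) was not called. It was called without the 2 libraries (1.72, SE 0.45, adjusted p = 0.0119), without pig 2 (2.15, adjusted p = 0.0399), with all 27 libraries in one fit (1.78, adjusted p = 0.0161) and by DESeq2 (1.83, adjusted p = 0.0195). ARG2 overlaps PLEKHH1 on its own strand over 26495 bases and VTI1B on the other over 11287, and these had 34323 and 67252 counts in all against 4626. How shared reads were assigned is not stated, so the ARG2 level is uncertain. The changes of PLEKHH1 were 0.65 and 0.81 in GS and those of VTI1B 0.52 and 0.44, all smaller than those of ARG2.

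SOD2 (ENSSSCG00000040317, chr1:7651280-7691723, plus strand), the mitochondrial superoxide dismutase, was at 250, 118, 113, 153 and 180 CPM in GS at 0h and at 501, 511, 306, 436 and 257 at 12h. By 12h it had risen by 1.27 (SE 0.22, adjusted p = 0.00114). The 6h change of 0.94 (SE 0.22, adjusted p = 0.00872) stayed under the fold of 2. In PD it was at 327, 453, 535 and 202 CPM at 0h, 965, 342, 2212 and 358 at 6h, and 832, 1538, 4357 and 1764 at 12h. The PD change at 6h, with 3 of 4 lungs up, was 1.07 (SE 0.49, adjusted p = 0.531), or 0.80 (SE 0.39, adjusted p = 0.336) without the 2 libraries. Every lung of both groups was higher at 12h than at 0h, and the PD change was 2.34 (SE 0.50, adjusted p = 0.0277), or 2.46 (SE 0.42, adjusted p = 0.000926) without the 2 libraries. The PD call was lost without pig 3, 4 or 5 (adjusted p = 0.0770 to 0.280). SOD2 shares 682 bases with WTAP on the other strand, which had 165385 counts in all against 436131 and changed by 0.86 and 0.96 in GS and by 0.89 and 1.41 in PD at 6h and 12h. How the shared bases were counted is not stated.

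Counted together, 3 of the 10 genes were called in GS at 6h, all higher (GCH1, ARG1, ARG2), where 11.1% of the 18594 genes tested were called and 5.5% called higher. At 12h 5 of 10 were called, against 15.7% of all genes, 3 higher (ARG1, ARG2, SOD2; 6.99% of all genes) and 2 lower (SUCNR1, IDO1; 8.66%). In PD none was called at 6h, against 0.142% of 15545 genes (0.135% called higher), and 2 of 10 (ACOD1 and ARG1) had an unadjusted p under 0.05, as did 9.41% of all genes. DESeq2's Wald test called these 2 genes at 6h, and 2.75% of all genes. At 12h 3 of 10 were called in PD, all higher (ACOD1, ARG1, SOD2), against 5.98% of all genes and 3.22% called higher. The median change of the 10 genes at 12h was 0.14 in GS, where that of all genes was -0.08, and 1.38 in PD, where it was -0.05. The members were chosen with results of these libraries known, so these shares describe them and test nothing.

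**Figure D2:**
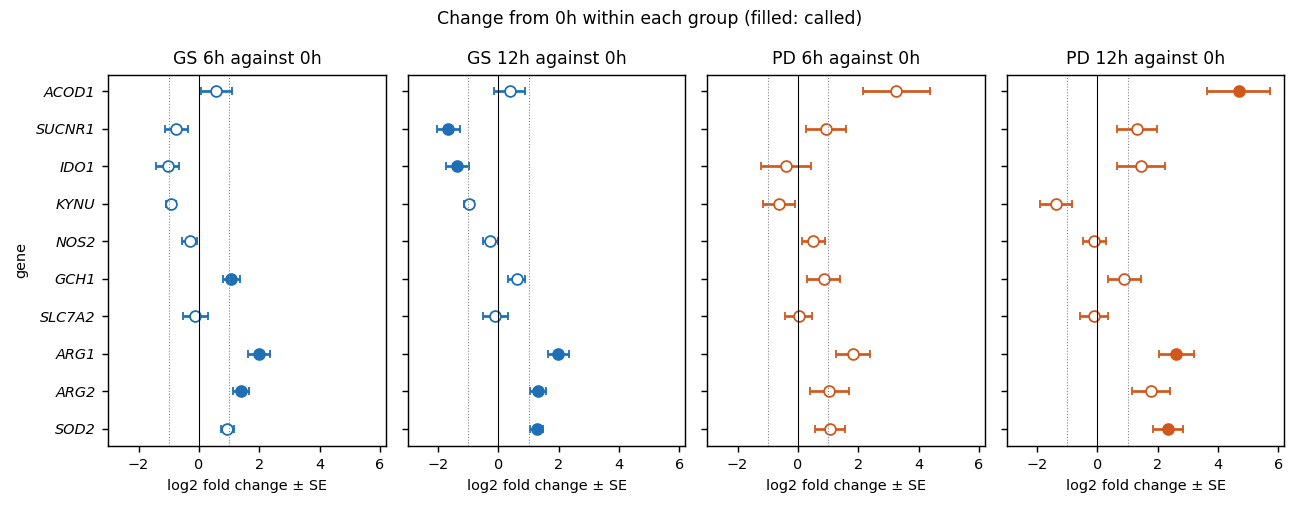
Fitted log2 fold change against 0h with its standard error for each gene (rows) in GS at 6h and 12h and in PD at 6h and 12h (panels), filled where called, with dotted lines at a fold of 2 either way. ARG1 is filled in 3 of the 4 panels and ACOD1 only in PD at 12h, at 4.69.

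The PD counts rested on few animals. Leaving out pig 3, 4 or 5 left 0 of 10 called in PD at 12h, where 0%, 2.55% and 0% of all genes were then called, and leaving out pig 2 left 4, beside 24.4% of all genes. Without pig 3 or 5 the loss of calls thus ran through the whole table, while without pig 4 other genes were still called. Without the 2 libraries that stood apart 5 of 10 were called at 12h, 4 higher (IDO1, ARG1, ARG2, SOD2) and 1 lower (KYNU), beside 21.1% of all genes (10.5% higher and 10.6% lower). At 6h none was called without them, beside 2.63% of all genes (2.12% higher), and 2 had an unadjusted p under 0.05 in the direction of lower levels (IDO1, KYNU) and 1 of higher (ARG1), as did 15.2% of all genes in either direction. Between 6h and 12h none of the 10, and 0% of all genes, passed edgeR's adjusted p in either group (unadjusted p under 0.05 in 1 of 10 in GS, SUCNR1, beside 4.74% of all genes, and in 2 of 10 in PD, IDO1 and SOD2, beside 10%). DESeq2 called 0 of 10, beside 0.0108% (GS) and 1.44% (PD) of the genes tested. Without the 2 libraries IDO1 and SOD2 were called higher at 12h than at 6h in PD, where 4.34% of all genes were called and 2.04% called higher.

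Whether dialysis altered these changes was tested on each pig's own change from 0h, on the regularised log scale, by the exact two-sided Wilcoxon test of 4 against 5 pigs, whose smallest possible p is 0.0159. After adjustment over 17884 genes none of the 10, and 0% of all genes, passed at 6h or at 12h. With that smallest p a gene can pass the adjustment only if a large share of all genes reach it. The adjusted test therefore cannot decide the question for single genes. By unadjusted p, ACOD1 and SUCNR1 reached 0.0159 at 12h (adjusted p = 0.711 each), which means that the groups did not overlap, as was so for 2.23% of all genes (1.34% with PD higher). At 6h this held for none of the 10 and for 3.17% of all genes. For ACOD1 the log2 ratios of 12h to 0h were 3.04, 4.38, 6.27 and 5.15 in PD and 0.70, -0.22, 0.19, 2.02 and -0.81 in GS. For SUCNR1 they were 0.69, -0.10, 2.74 and 2.25 in PD and -2.96, -1.53, -1.75, -0.61 and -1.57 in GS. Both genes thus ended higher relative to their start in dialysed lungs, SUCNR1 from a fall in GS and a mixed course in PD. At 0h, before dialysis, SUCNR1 stood lower in PD, with a difference of -1.201 (SE 0.53, edgeR adjusted p = 0.0870), called by DESeq2 (adjusted p = 0.0470) and by edgeR without PD pig 3 (-1.84, adjusted p = 0.0206). At 12h it stood higher by 1.67 (SE 0.63, edgeR adjusted p = 0.0801). That difference was called by DESeq2 (1.69, adjusted p = 0.0311) and by edgeR with all 27 libraries in one fit and no replicate block (1.66, adjusted p = 0.0281).

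An edgeR interaction of group and time over all 27 libraries gave differences at 12h of 4.29 for ACOD1 (SE 1.13), 2.96 for SUCNR1 (SE 0.74) and 2.75 for IDO1 (SE 0.90). The edgeR adjusted p was 0.629, 0.629 and 0.678. These were the 3 of 10 genes with an unadjusted p under 0.05 at 12h, against 5.98% of all genes. At 6h ACOD1 (2.67, SE 1.205) and SUCNR1 (1.63, SE 0.74) were under it, against 5.85% of all genes, but without the 2 libraries they stood at 1.52 (SE 1.29) and 1.17 (SE 0.71), and none of the 10 was under it, against 8.34% of all genes. For IDO1 the log2 ratios were -0.82, 1.87, 4.50 and 1.56 in PD and -0.02, -2.23, -1.86, 0.05 and -1.99 in GS, so that pig 2 fell among the GS lungs. Without the 2 libraries the 3 differences at 12h were 4.27, 2.78 and 2.65 (adjusted p = 0.263, 0.231 and 0.231). The SOD2 difference was 1.04 (SE 0.51, adjusted p = 0.838), or 1.13 (SE 0.46, adjusted p = 0.321) without them, when 4 of 10 genes, SOD2 the added one, had an unadjusted p under 0.05 against 12.8% of all genes. The 12h changes of KYNU, NOS2, GCH1, ARG1, ARG2 and SLC7A2 differed between the groups by less than the standard error of the interaction, which was 0.67 for ARG1 and 0.66 for ARG2. This does not show that the groups acted alike.

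**Figure D3:**
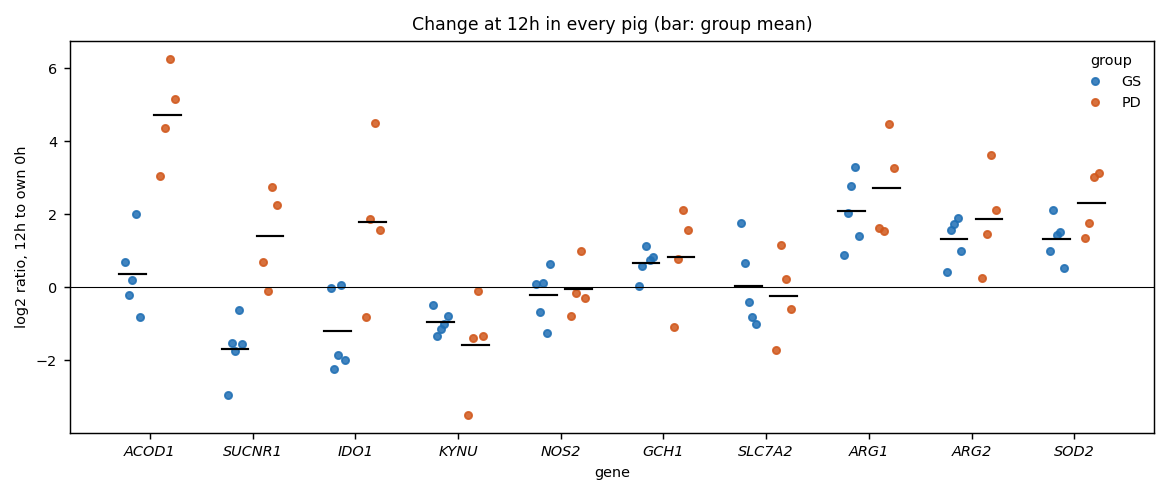
Log2 ratio of the level at 12h to that of the same lung at 0h for each gene, one point per pig, GS in blue (n = 5) and PD in orange (n = 4), with the group mean as a bar. ACOD1 and SUCNR1 are the genes whose groups do not overlap, with ACOD1 from 3.04 to 6.27 in PD and from -0.81 to 2.02 in GS.

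Levels at a given time were compared between the groups with edgeR on the 9 libraries of that time. At 0h, before any dialysis, SOD2 was higher in PD by 1.27 (SE 0.32, adjusted p = 0.00759) and NOS2 was lower, with a difference of -1.18 (SE 0.39, adjusted p = 0.0315). These are 2 of 10 genes, where 29.1% of all 16477 genes were called (15.2% higher and 13.9% lower) between groups that had not yet been treated differently. Without PD pig 4, whose 0h library stood apart, SOD2 was at 1.05 (adjusted p = 0.0153), NOS2 at -1.16 (adjusted p = 0.0526) and ARG1, then called, at 1.36 (adjusted p = 0.0328). The NOS2 call was also lost without GS pig 44, 55 or 77 or PD pig 2 or 3 (adjusted p = 0.0553 to 0.0803). With all 27 libraries in one fit and no replicate block neither gene was called (SOD2 1.22, adjusted p = 0.0569, and NOS2 -1.22, adjusted p = 0.0873). At 6h IDO1 alone was called, higher in PD by 2.52 (SE 0.77, adjusted p = 0.0309), beside 21.1% of all genes and 11.1% called higher, and it was 0.48 (adjusted p = 0.447) without pig 4. That call was also lost without GS pig 17, 44 or 77 or PD pig 2 (adjusted p = 0.05004 to 0.0739) and with no filter on low counts (2.46, adjusted p = 0.117). DESeq2 did not call IDO1 but called ARG1 (1.28, adjusted p = 0.0224) and SOD2 (1.54, adjusted p = 0.0175), both higher in PD. By edgeR these stayed just short of a call (adjusted p = 0.0562 and 0.057). They were called with all 27 libraries in one fit and no replicate block (1.24, adjusted p = 0.0488, and 1.53, adjusted p = 0.0238). Both were also called without PD pig 3 or 5, and SOD2 and ACOD1 without GS pig 9.

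At 12h, 4 of 10 genes were called, all higher in PD, beside 19.3% of all genes and 10.2% called higher. These were ACOD1 (4.30, SE 0.76, adjusted p = 0.00358), IDO1 (3.99, SE 0.68, adjusted p = 0.0032), SOD2 (2.40, SE 0.46, adjusted p = 0.00514) and ARG1 (1.74, SE 0.34, adjusted p = 0.0056). ACOD1 had shown no called difference at 0h, and that of IDO1 was 0.63 (SE 0.41), called without GS pig 44 (1.03, adjusted p = 0.0372), whereas SOD2 was already higher in PD and ARG1 stood at 1.11 (SE 0.47, adjusted p = 0.0760), a difference called without PD pig 4, without GS pig 9 (1.57, adjusted p = 0.0134) and by DESeq2 (adjusted p = 0.0446). Leaving out PD pig 2, whose 12h library stood apart, gave 4.67, 4.36, 2.67 and 1.85 for these 4 and added calls for SUCNR1 (1.96, adjusted p = 0.0301) and ARG2 (1.36, adjusted p = 0.0104). DESeq2 on all 9 libraries also called SUCNR1 (1.69, adjusted p = 0.0311) and ARG2 (1.11, adjusted p = 0.0318). Group, depth and the make-up of the libraries differ together at every time and cannot be told apart in these comparisons.

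**Figure D4:**
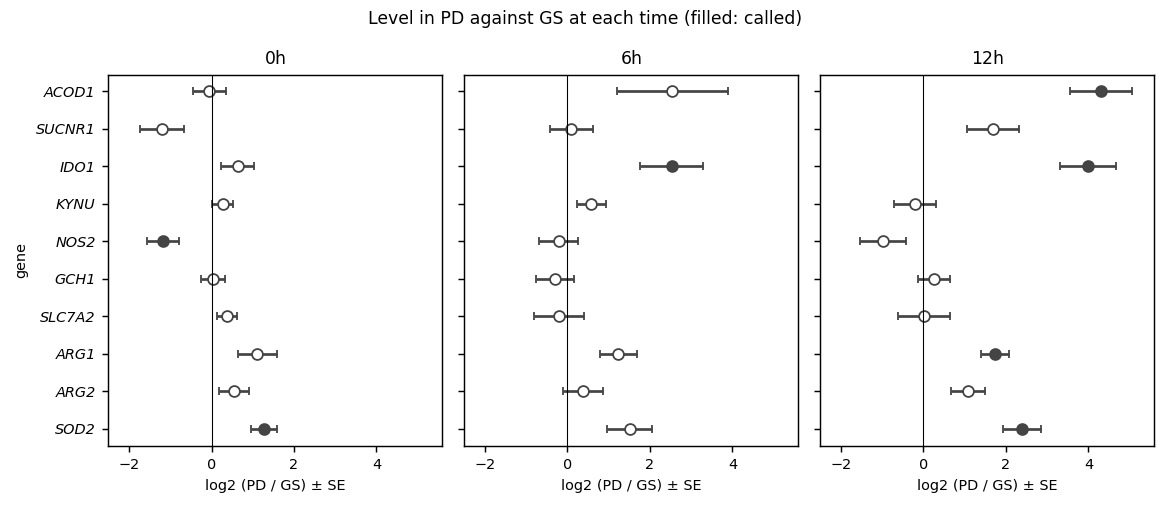
Fitted log2 difference in level of PD against GS with its standard error for each gene (rows) at 0h, 6h and 12h (panels), filled where called. SOD2 is filled at 0h and 12h, and ACOD1 moves from near 0 at 0h to 4.30 at 12h.

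The other genes of these pathways were counted from lists. Of 24 genes of the tricarboxylic acid cycle and its carriers, which feed and surround ACOD1, none was called in GS, and in PD only IDH1, the cytosolic isocitrate dehydrogenase, at 12h (-1.45, SE 0.36, adjusted p = 0.0389). Of all genes 11.1% and 15.7% were called in GS at 6h and 12h, and 0.142% and 5.98% in PD. In the PD fit without the 2 libraries 1 of the 24 rose and 1 fell at 12h (10.5% and 10.6% of all genes). Their median change in PD at 12h was -0.05, and that of all genes was also -0.05. Of 7 tetrahydrobiopterin genes beside GCH1 none was called against 0h in either group, which at those shares of all genes is no result about the list, while 2 were called lower in PD at 12h without the 2 libraries (10.6% of all genes) and 3 without pig 2 (12.6%), and 5 were called higher in PD than in GS at 0h, where 15.2% of all genes were.

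Of the tryptophan and kynurenine list, 19 genes were tested in GS and 18 in PD. In GS 5 rose and 1 fell at 6h, where 5.5% of all genes rose and 5.56% fell, and 4 rose and 3 fell at 12h, where 6.99% rose and 8.66% fell. In PD 1 rose at 6h (0.135% of all genes), and 3 rose and 1 fell at 12h (3.22% and 2.76%). Those named here that rose were targets of the aryl hydrocarbon receptor, which binds kynurenine among other ligands, and amino acid carriers. TIPARP, such a target, changed by 1.77 and 1.70 in GS at 6h and 12h and by 2.56 and 1.81 in PD, called each time, and CYP1A1 by 3.79 in GS at 6h (SE 1.17, adjusted p = 0.0319) and 5.22 in PD at 12h (SE 1.13, adjusted p = 0.0290). CYP1A1 in PD at 12h without the 2 libraries stood at 5.10 (SE 1.76, adjusted p = 0.113), not a call. CYP1B1 rose by 1.76 and 1.499 in GS, and SLC36A4, an amino acid carrier, rose by 1.1996 at 12h. SLC3A2, the heavy chain of the large neutral amino acid carrier, rose by 1.28 and 1.17 in GS and 2.26 in PD at 12h. The list genes called lower were AFMID, KMO and IDO2. AFMID had changes of -1.04 and -1.5999 in GS at 6h and 12h and of -1.67 in PD at 12h. KMO and IDO2 were called in GS at 12h, with -1.16 and -2.10.

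Of the arginine, citrulline and polyamine list, 24 genes were tested in GS and 22 in PD. In GS 4 rose and 1 fell at 6h, and 5 rose and 1 fell at 12h, while in PD none was called at 6h, where 0.142% of all genes were, and 3 rose at 12h, beside the shares of all genes just given. SLC7A1, the constitutive arginine carrier, rose by 2.39 and 2.36 in GS and by 3.10 (SE 0.49, adjusted p = 0.0163) in PD at 12h, unlike SLC7A2. SRM, spermidine synthase, rose by 1.58 and 1.75 in GS and 2.73 in PD at 12h. ODC1, which takes up the ornithine that arginase yields, rose in PD at 12h by 1.49 (SE 0.32, adjusted p = 0.0277). AMD1, another polyamine enzyme, rose by 1.07 and 1.32 in GS, and SMOX, spermine oxidase, by 1.14 at 12h. NOS1, another nitric oxide synthase, fell in GS by 2.07 and 1.97.

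Beside SOD2, 20 genes of superoxide and peroxide handling were tested, and those named next were the ones called. Of all genes 5.5%, 6.99% and 3.22% rose in GS at 6h and 12h and in PD at 12h, and 2.76% fell in PD at 12h. TXNRD1, thioredoxin reductase, rose in GS at 6h (2.24) and 12h (2.66) and in PD at 12h (2.93), TXN rose in GS at 12h (1.29), and in PD at 12h GPX3 rose (2.19) and NOX4 fell (-1.35). Of 23 tested inducers of the members, 5 rose at 6h and 5 at 12h in GS, and 2 and 7 in PD, with none lower, where 5.5%, 6.99%, 0.135% and 3.22% of all genes rose. IL6 rose by 2.23 and 2.13 in GS and by 3.77 and 4.51 in PD, TNF by 1.37 and 1.97 in GS and by 3.203 and 2.71 in PD, and IRF1, which acts on interferon response elements, by 1.10 and 1.16 in GS and by 2.86 in PD at 12h. CEBPD and RELB, a C/EBP factor and an NF-kB subunit, rose by 1.52 and 1.16 at 6h and by 1.70 and 1.181 at 12h in GS, and RELB by 1.91 in PD at 12h. IL1B rose by 3.03 in PD at 12h (SE 0.72, adjusted p = 0.0351), while its GS changes of -1.06 (SE 0.62, adjusted p = 0.214) and -0.29 were not called. In PD at 6h no gene of these lists, TIPARP, IL6 and TNF included, was called without pig 3, 4 or 5, when 0% of all genes were. In PD at 12h no gene of these lists was called without pig 3 or without pig 5, when 0% of all genes were. Without pig 4, when 2.55% of all genes were called, 6 of the 23 inducers were called higher. So were 2 of the 18 tryptophan, 2 of the 22 arginine and 2 of the 20 superoxide and peroxide genes. Of the 24 tricarboxylic acid cycle genes 1 was then called lower, and of the 7 tetrahydrobiopterin genes none. In PD 7 inducers rose at 6h and 13 at 12h without the 2 libraries, beside 2.12% and 10.5% of all genes. In the same fit at 12h, where 10.6% of all genes fell, 5 of the 20 superoxide and peroxide genes fell and 2 rose, 2 of the 22 arginine genes fell and 5 rose, and 1 of the 18 tryptophan genes fell and 5 rose. Of the list genes named here as called in PD at 12h, all but CYP1A1 kept the call in that fit. The lists were drawn up with results of these libraries known.

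**Figure D5:**
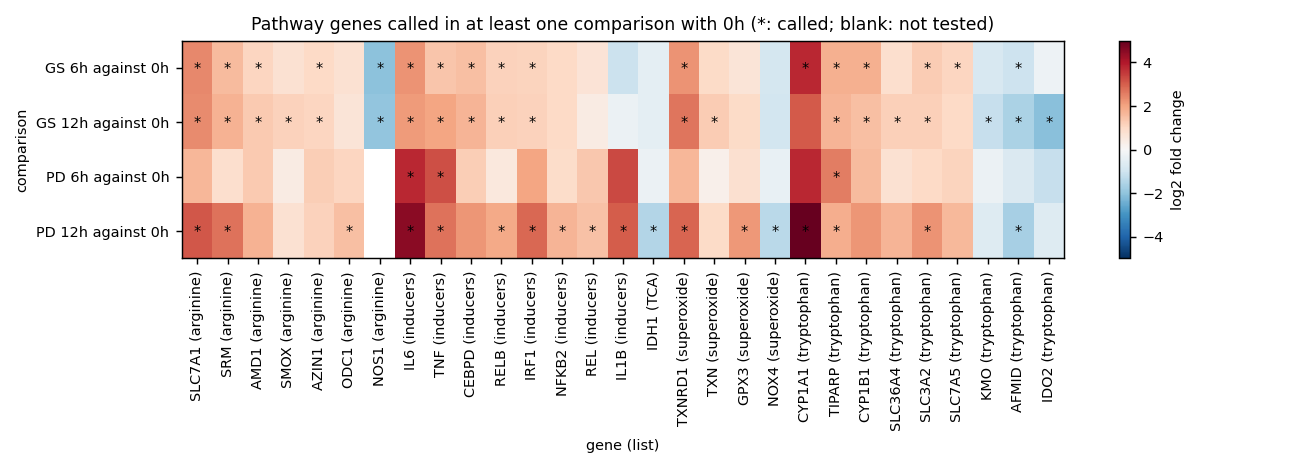
Log2 fold change against 0h (colour) of the 29 pathway genes called in at least 1 comparison (columns, the list in brackets) in GS and PD at 6h and 12h (rows), with an asterisk where called, blank where not tested, and colours that stop at 5. SLC7A1, SRM, TXNRD1, SLC3A2 and TIPARP carry asterisks in both groups.

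The genes whose course was most like that of each member were sought by Pearson correlation of log2 CPM over the 27 libraries after subtraction of each pig's mean, given as a description, since libraries share group, time and depth. For ACOD1 they were CXCL10 (r = 0.94), CD274 (0.93) and NDUFAF6 (0.93), for IDO1 NMI (0.89), PARP14 (0.86) and CDCA7 (0.84), and for SUCNR1 GJA5 (0.81), ANKRD66 (0.77) and IL18 (0.75). For NOS2 they were HSPB6 (0.82), VEGFA (0.80) and ARHGEF10 (0.80), and for GCH1 UAP1 (0.93), PGM2 (0.93) and RYBP (0.93). ARG1 went with CDV3, LITAF (both 0.97) and MAPRE1 (0.96), ARG2 with CLIC2 (0.97), EEF1E1 and TIMM8A (both 0.96), and SOD2 with NIP7 (0.98), TAF1D (0.97) and GNL3 (0.96). KYNU went with KRIT1, ZNF280D (both 0.97) and RARS2 (0.96), and SLC7A2 with RALGAPB (0.89), VKORC1L1 (0.85) and ATRN (0.84). The 27 libraries include the 2 that stood apart, and that of PD pig 2 at 12h held the lowest KYNU and SLC7A2 levels (4.21 and 6.69 CPM). Its part in these correlations was not tested. Among the members themselves ARG1 and ARG2 were most alike (0.93), followed by ARG2 and SOD2 (0.89) and by GCH1 and ARG2 (0.87). ACOD1 went with SOD2 (0.84) more than with IDO1 (0.65), KYNU ran against ARG1 (-0.53), and the highest value of NOS2 with another member was 0.20 (KYNU).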

How the data were processed

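Biopsies of 9 pig lungs at 3 time points gave 27 stranded mRNA libraries. The deposited table holds read counts per gene; per the labels, the authors trimmed reads with cutadapt 1.15, aligned them with TopHat2 2.0.14 to Sscrofa11.1 and counted with featureCounts (Subread 1.6.0), and the strand setting is not given in the sources used here. Symbols were matched for 16719 genes.

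Counts were tested here in R 4.3.3 with edgeR 4.0.16 (TMM, filterByExpr, robust quasi-likelihood F test, Benjamini-Hochberg adjustment), within each group with the pig as a block. CPM use TMM-scaled totals, and log2 ratios add 0.5 counts. Libraries of one pig come from the same animal, which is the pairing: residuals correlated by 0.513 on average within GS pigs and 0.112 within PD pigs. DESeq2 1.42.0 gave the regularised log and an alternative test. Counting error allows up to 0.104 CPM in GS and 0.324 in PD for a count of 0 (3 counts). The scripts were tested on simulated data. No 2 libraries agreed within sampling noise (smallest chi-square per degree of freedom 39.8). The members and lists were chosen with earlier results of these data known. Named genes were all members, of each list the called genes with the largest change at 12h (up to 4 per group and direction), marker sums, and the 3 genes most like each member. Alternatives are given in the closing section.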

Additional observations from a re-analysis of the deposited data

Results flagged for a closer look

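Each gene was examined within each group and time for a single lung far from the others by Dixon's test at the 95% level. Of 60 such sets, 4 were picked out, where chance picks about 1 in 20. ACOD1 in GS at 6h was 58.1 CPM in pig 9 and 1.81 to 4.97 in the other 4 lungs. GCH1 in GS at 0h was 8.97 CPM in pig 9 and 6.63 to 6.89 in the others. ARG2 in GS at 0h was 2.78 CPM, again in pig 9, and 1.79 to 1.96 in the others. GCH1 in PD at 12h was 4.64 CPM in pig 2, in the library with the highest share of ribosomal protein genes, and 14.6 to 17.9 in the others. Whether that share has a part in the low value was not tested.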

How the results depend on the processing

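For differences between the groups in change, the regularised log difference was set against the standard error of the log2 ratios. No 6h difference exceeded that. By their own standard errors ACOD1 (1.33, SE 1.11), SUCNR1 (0.79, SE 0.40) and NOS2 (0.49, SE 0.30) at 6h would also have entered. So would ARG1 at 12h (0.62, SE 0.48). As counted, 67 of 110 fitted changes exceeded the standard error used. Over all alternatives these gave 766 values with the same direction and call as reported, 42 that gained a call, 33 that lost one and 1 with the opposite sign, ACOD1 in GS at 6h without pig 9 (-0.044, adjusted p = 0.950, edgeR), whose range with 1 pig left out was -0.044 to 0.85. Members called in GS at 6h were 5 with no fold threshold (28.5% of all genes were then called), 4 by DESeq2 (11.9%) and 2 to 6 with 1 pig left out (7.2% to 11.4%). With all 27 libraries in one fit they were 2 in GS at 6h (6.82%, GCH1 lost) and 4 at 12h (11.4%, IDO1 lost). In PD they were 2 at 6h by DESeq2 (2.75%), 4 at 12h by DESeq2 (16.5%), 2 at 12h with no low count filter (3.41%), 5 at 12h with all 27 libraries in one fit (18.5%), 5 at 12h (21.1%) and 2 for 12h against 6h (4.34%) without the 2 libraries that stood apart (chosen after seeing the data), and 0 to 4 at 12h with 1 pig left out (0% to 24.4%). For the level at 0h they were 4 by DESeq2 (30.7%), 0 with all libraries in one fit and no replicate block (25.8%), and 1 to 3 with 1 pig left out (26.8% to 29.5%). For the level at 6h they were 0 with no low count filter (12.8%), 2 by DESeq2 (24.8%), 3 with all libraries in one fit and no replicate block (19.8%), and 0 to 3 with 1 pig left out (9.61% to 24.4%). Leaving out 1 pig gave 4 to 6 in GS at 12h (11.6% to 18.8%) and 4 to 6 for the level at 12h (12.5% to 25.4%).

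Without the pig as a replicate block, 3 members were called in GS at 6h, 4 at 12h (IDO1 lost its call, -1.22, adjusted p = 0.0701, edgeR), 0 in PD at 6h and 3 at 12h, when 6.04%, 10.2%, 0.643% and 9.39% of all genes were called. The cause of these differences was not tested. SUCNR1 rests on few reads, and with 4 PD pigs leaving out pig 3, 4 or 5 left ACOD1, ARG1 and SOD2 without a call at 12h (adjusted p = 0.055 to 0.28, edgeR).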
